A study of Mus musculus with 9 samples.

Results

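Amn, Cubn, Lrp2 and Dab2 serve the uptake of proteins at the surface of the visceral endoderm, and Afp, Ttr, Apoa1, Apoe and Rbp4 encode serum proteins that the same tissue secretes. The 9 genes were followed through cultures of mouse embryonic stem cells. Their probe sets were chosen by symbol alone: every probe set whose single platform symbol is one of these genes was taken, which gave 25 of the 45101 probe sets and 9 of the 18194 genes so named on the array. The uptake genes have 10 of these probe sets and the serum protein genes 15. No measured value entered the choice.

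The cells were of the D3-pOct4 line, a single embryonic stem cell line, kept in medium with fetal bovine serum for 7 days. A first group grew without leukemia inhibitory factor (LIF) but with 2 µM DETA/NO, an adduct used as a nitric oxide donor. A second group grew without LIF and without DETA/NO, and the last grew with 1000 U/ml of LIF, the cytokine that holds mouse embryonic stem cells undifferentiated. Each group has 3 arrays (an Affymetrix array of the mouse genome), replicates 1, 2 and 3, of passages 31, 33 and 34. The labels say no more than the passage about how far these cultures were separate, so a p-value here measures only how arrays of 1 line at different passages differ.

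The visceral endoderm is the epithelium that surrounds the early mouse embryo and feeds it before the placenta works. It binds maternal proteins, vitamins and lipids with the giant receptors megalin, made by Lrp2, and cubilin, made by Cubn. Cubilin has no membrane anchor of its own and reaches the surface bound to amnionless, the product of Amn, while the adaptor Dab2 links such receptors to clathrin. The same cells act as an early liver and release alpha-fetoprotein (Afp), transthyretin (Ttr), apolipoproteins (Apoa1, Apoe) and the retinol carrier Rbp4.

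The sequences at the gene starts are shown for 4 of the genes. Amn and Cubn are the uptake genes whose signals ran together over the arrays, Lrp2 is the receptor that ran apart from them, and Afp stands for the serum protein genes with dim signals. Each line holds 250 bases before and 50 bases from the RefSeq start of the gene (build GRCm38.p6), 5′ to 3′ on the strand of the gene, and capitals mark matches to the motifs named after them.
Amn, chr12:111270846-111271145, plus strand: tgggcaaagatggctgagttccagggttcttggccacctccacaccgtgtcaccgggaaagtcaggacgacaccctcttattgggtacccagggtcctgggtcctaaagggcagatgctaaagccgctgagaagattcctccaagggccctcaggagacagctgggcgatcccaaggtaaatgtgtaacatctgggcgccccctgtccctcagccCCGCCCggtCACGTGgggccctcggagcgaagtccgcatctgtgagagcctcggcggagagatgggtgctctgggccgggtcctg
Cubn, chr2:13491827-13492126, minus strand: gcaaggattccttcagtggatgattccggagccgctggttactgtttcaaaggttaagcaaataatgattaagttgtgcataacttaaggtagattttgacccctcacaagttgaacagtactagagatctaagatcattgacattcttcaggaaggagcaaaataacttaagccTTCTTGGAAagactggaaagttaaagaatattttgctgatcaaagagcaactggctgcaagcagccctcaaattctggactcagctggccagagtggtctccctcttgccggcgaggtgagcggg
Lrp2, chr2:69585980-69586279, minus strand: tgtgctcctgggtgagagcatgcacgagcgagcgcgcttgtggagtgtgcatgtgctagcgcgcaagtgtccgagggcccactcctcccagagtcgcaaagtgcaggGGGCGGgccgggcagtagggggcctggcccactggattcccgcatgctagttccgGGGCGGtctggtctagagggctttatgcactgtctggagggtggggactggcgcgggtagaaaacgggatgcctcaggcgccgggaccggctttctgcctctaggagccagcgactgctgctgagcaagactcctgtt
Afp, chr5:90490464-90490763, plus strand: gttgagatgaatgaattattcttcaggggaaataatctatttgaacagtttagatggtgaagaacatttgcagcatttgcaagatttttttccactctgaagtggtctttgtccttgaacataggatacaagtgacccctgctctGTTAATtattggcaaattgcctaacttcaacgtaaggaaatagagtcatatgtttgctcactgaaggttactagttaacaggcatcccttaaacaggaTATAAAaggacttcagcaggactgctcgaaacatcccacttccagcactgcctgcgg

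The motifs searched on both strands were the GATA sites TGATAA and AGATAA, the HNF1 core GTTAAT, the STAT site TTCNNNGAA, the E-box CACGTG, the GC box GGGCGG and the TATA box TATAAA. Amn held an E-box starting 26 bases before its start, and a GC box on the other strand at -35. Cubn, which runs with Amn on the arrays, held neither and had 1 STAT site at -75. Lrp2 held GC boxes at -143 and -88, and Afp held an HNF1 core at -105 and a TATA box at -7. The windows also differ in base composition: GC content was 62.3% in Amn and 65% in Lrp2, against 44.3% in Cubn and 40% in Afp, beside a median of 52.7% over 32851 RefSeq promoters of this length. Among those promoters 35.7% held GGGCGG, 13.6% TATAAA, 11.2% AGATAA, 9.05% TGATAA, 8.3% TTCNNNGAA, 7.15% CACGTG and 7.1% GTTAAT. None of the 4 windows printed held TGATAA or AGATAA, and no marked matches overlap. Windows of other members, not printed, did hold them. The first listed start of Dab2 had TGATAA at -179 and AGATAA at 15, and that of Apoa1 had TGATAA at 16. A match is a stretch of letters, not a site shown to be bound.

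Some arrays bear on every value that follows. Socs3, a direct target of LIF signalling through STAT3, had a signal of 95.8, 405 and 127 in replicates 1, 2 and 3 with DETA/NO, of 102, 3054 and 330 without LIF, and of 3213, 282 and 1794 with LIF. The arrays labelled no LIF replicate 2 and LIF replicate 2 thus go against their labels on this gene, and groups are named below as the labels name them. The array pair most alike over all tested probe sets was DETA/NO replicate 3 and no LIF replicate 1, with a Pearson correlation of 0.977, against 0.951 for the next of the 36 pairs. DETA/NO replicates 1 and 2 and LIF replicate 1 had a higher median signal, 20.8 to 23.3, than the other 6 arrays at 13.9 to 17.8. All 8 listed genes of pluripotent cells lay above the median of the array on all 9 arrays.

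Taken by the probe set of highest mean signal, all 4 uptake genes lay above the median of the array on all 9 arrays. None of the group differences passed the test. Amn and Cubn had their highest signals with LIF on average, while Lrp2 had its highest with DETA/NO. A probe set was tested if its signal reached the 40th percentile of the array on at least 3 arrays, a filter that all 10 probe sets of the uptake genes passed. The probe set with the highest mean signal stands for a gene in what follows.

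Amn had signals of 80, 103 and 29.4 in DETA/NO replicates 1, 2 and 3, of 48.6, 232 and 88 without LIF and of 260, 66.2 and 466 with LIF (probe set 1417920_at). The high arrays were LIF replicates 3 and 1 and no LIF replicate 2, the same 3 arrays on which Socs3 exceeded 1000, and the groups overlap. The mean was 71 ± 37.8 with DETA/NO, 123 ± 96.5 without LIF and 264 ± 200 with LIF (SD, n = 3 each). On the log2(signal + 3) scale, Amn differed by -1.63 ± 0.78 (SE) between DETA/NO and LIF (limma, adjusted p = 1). In single passages that difference was -1.66, 0.62 and -3.86, so the donor array was the lower one in passages 31 and 34 and the higher one in passage 33. Without LIF, Amn differed from LIF by -0.98 ± 0.78 (adjusted p = 0.973), and with DETA/NO it differed from no LIF by -0.65 ± 0.78 (adjusted p = 0.954). Without LIF replicate 3 the differences from LIF were -1.03 with DETA/NO and -0.39 without LIF, and without no LIF replicate 2 the difference between DETA/NO and no LIF was -0.06. Without both arrays that go against their labels, the difference between DETA/NO and LIF was -2.41 with an adjusted p of 0.53, and that between no LIF and LIF was -2.36 with an adjusted p of 0.553.

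Cubn, the receptor that amnionless carries, had signals of 173, 80.1 and 41.5 in DETA/NO replicates 1, 2 and 3, of 27.4, 244 and 96.9 without LIF and of 120, 122 and 687 with LIF (probe set 1452270_s_at). One array, LIF replicate 3, stood above the rest, and the 2 lowest values were on the array pair that is most alike. The mean was 98.1 ± 67.4 with DETA/NO, 123 ± 111 without LIF and 310 ± 327 with LIF (SD, n = 3 each). The difference between DETA/NO and LIF was -1.35 ± 0.87 (SE) on the log2 scale, and it was -0.52 without LIF replicate 3. Between no LIF and LIF it was -1.28 ± 0.87, or -0.45 without LIF replicate 3, and between DETA/NO and no LIF -0.07 ± 0.87. In single passages the last of these was 2.53, -1.57 and -1.17, so passage 31 went the other way from passages 33 and 34. The second Cubn probe set, 1426990_at, ran closely with the first over the 9 arrays (Pearson r = 0.99, exact permutation p = 3.31e-05, adjusted over 10 pairs of probe sets 0.000317).

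Lrp2, which encodes megalin, had signals of 634, 742 and 257 in DETA/NO replicates 1, 2 and 3, of 237, 140 and 549 without LIF and of 58.6, 516 and 423 with LIF (probe set 1452320_at). Its lowest arrays were LIF replicate 1 and no LIF replicate 2, both among the 3 highest for Amn. The mean was 544 ± 254 (SD, n = 3) with DETA/NO, 309 ± 214 without LIF and 333 ± 242 with LIF. The difference between DETA/NO and LIF was 1.06 ± 0.81 (SE) on the log2 scale, and without LIF replicate 1 it was 0.08. Between DETA/NO and no LIF it was 0.9 ± 0.81, and between no LIF and LIF 0.16 ± 0.81. A second probe set, 1427133_s_at, followed the first (r = 0.97, exact permutation p = 6.34e-05, adjusted 0.000317), while the remaining one, 1445901_at, did not (r = 0.06, exact permutation p = 0.89, adjusted 0.903).

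That dimmer Lrp2 probe set had a mean signal of 27.7 ± 12.6 with DETA/NO and of 11 ± 2 without LIF (SD, n = 3 each). Its 3 donor arrays lay above the 3 arrays without LIF, and it was the only one of the 12 tested member probe sets whose groups did not overlap in a comparison. It differed by 1.05 ± 0.49 (SE) on the log2 scale between DETA/NO and no LIF (limma, adjusted p = 0.929). Its values on 6 of 9 arrays were below the array median, and the brighter probe sets of Lrp2 overlap in the same comparison.

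Dab2, the clathrin adaptor, had signals of 111, 127 and 75.2 in DETA/NO replicates 1, 2 and 3, of 66.8, 110 and 109 without LIF and of 60.1, 146 and 290 with LIF (probe set 1420498_a_at). LIF replicate 3 was again the highest array, and LIF replicate 1 was the lowest. The mean was 104 ± 26.3 with DETA/NO, 95.2 ± 24.6 without LIF and 165 ± 116 with LIF (SD, n = 3 each). The difference was -0.42 ± 0.54 (SE) on the log2 scale between DETA/NO and LIF, -0.55 ± 0.54 between no LIF and LIF and 0.13 ± 0.54 between DETA/NO and no LIF. Of the 3 other Dab2 probe sets, 1423805_at ran with this one (r = 0.90, exact permutation p = 0.00107, adjusted 0.00357), and the remaining pairs of Dab2 probe sets gave r of 0.40 to 0.55.

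**Figure D1:**
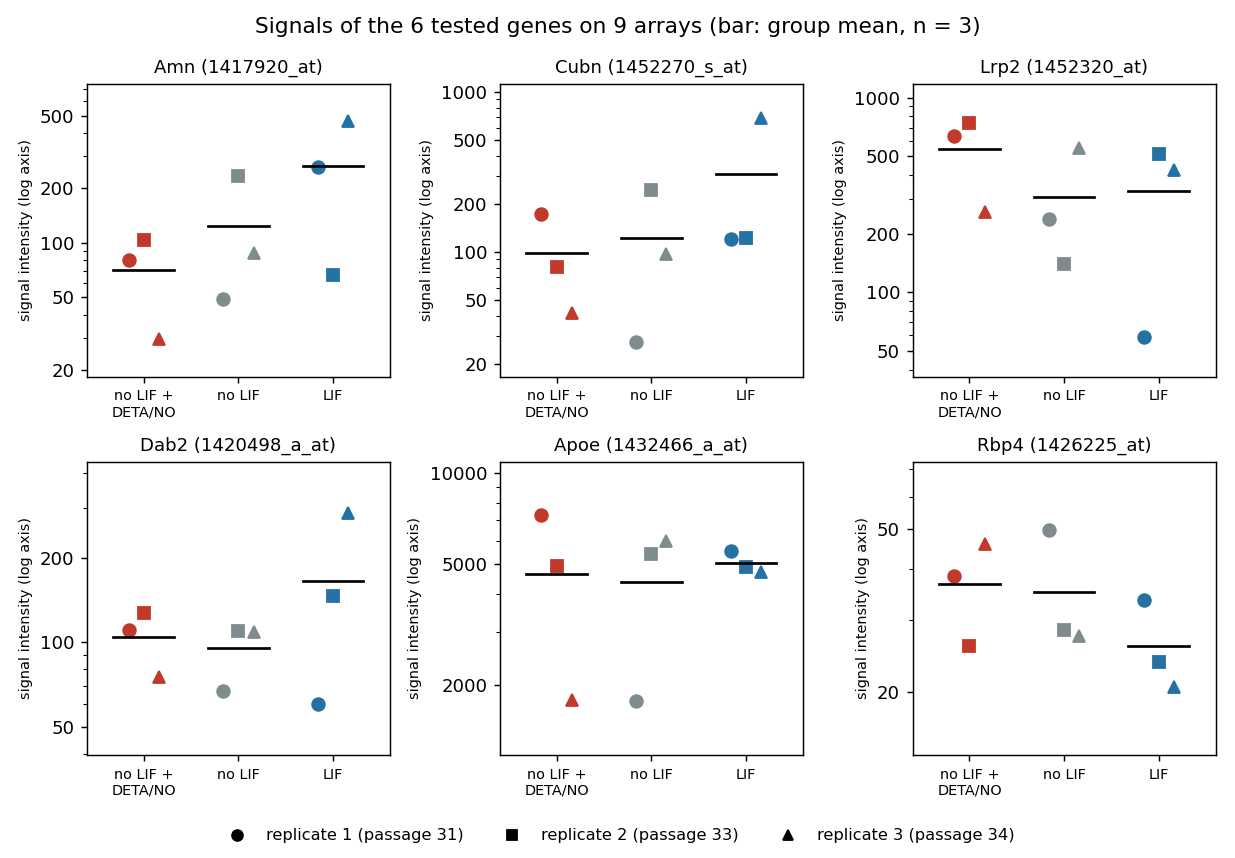
Signal intensity (log axis) of the 6 tested genes on each of the 9 arrays, with symbols for the replicate and passage and a bar for the mean of each group (n = 3). Every gene overlaps between the groups; Amn and Cubn are highest on LIF replicate 3 (466 and 687), Lrp2 is lowest on LIF replicate 1 (58.6), and Apoe is lowest on DETA/NO replicate 3 and no LIF replicate 1 (1778 and 1762).

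The serum protein genes split by their level. Apoe and Rbp4 lay above the median of the array on all 9 arrays, whereas Afp, Ttr and Apoa1, together 13 probe sets, reached that median in 2 of 117 values. In a culture measured as a whole, fewer cells of a type and less RNA per cell cannot be told apart.

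Apoe, a lipid carrier that many cells besides the visceral endoderm make, had signals of 7266, 4925 and 1778 in DETA/NO replicates 1, 2 and 3, of 1762, 5424 and 5972 without LIF and of 5555, 4909 and 4730 with LIF (probe set 1432466_a_at). The pair most alike, DETA/NO replicate 3 and no LIF replicate 1, held the low values, and the other 7 arrays lay between 4730 and 7266. The difference between DETA/NO and LIF was -0.34 ± 0.55 (SE) on the log2 scale, that between no LIF and LIF -0.39 ± 0.55 and that between DETA/NO and no LIF 0.05 ± 0.55. Without that pair, the comparisons with LIF gave 0.24 with DETA/NO and 0.17 without LIF, the opposite sign.

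Rbp4, which carries retinol in blood with transthyretin, had signals of 38.4, 25.9 and 46.1 in DETA/NO replicates 1, 2 and 3, of 49.9, 28.3 and 27.3 without LIF and of 33.5, 23.6 and 20.5 with LIF (probe set 1426225_at). Its spread over the arrays was narrow, and the groups overlap. The difference was 0.45 ± 0.41 (SE) on the log2 scale between DETA/NO and LIF and 0.38 ± 0.41 between no LIF and LIF. The LIF array was the lower one in 3 of 3 passages in both. Both use the same LIF arrays, and the share of all genes that did so was not taken. Between DETA/NO and no LIF it was 0.08 ± 0.41. None of these passed the test, at adjusted p of 1, 0.973 and 0.989 by limma.

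Afp, the main serum protein of the yolk sac and fetal liver, had signals of 13.7, 4.58 and 0.244 in DETA/NO replicates 1, 2 and 3, of 0.154, 0.29 and 0.494 without LIF and of 0.132, 0.18 and 0.17 with LIF (probe set 1416645_a_at). Of these, DETA/NO replicate 1 alone reached the 40th percentile of its array, 13.3. The 5 Afp probe sets ranged from 0.113 to 13.7 over all arrays, and none of them reached a median. They did not run alike. Probe set 1436880_at was highest on no LIF replicate 3, at 7.62, and read 0.276 to 0.59 with DETA/NO.

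Ttr, which carries thyroid hormone and binds Rbp4, had signals of 36.6, 7.11 and 2.35 in DETA/NO replicates 1, 2 and 3, of 4, 6.11 and 7.31 without LIF and of 5.79, 8.17 and 6.46 with LIF (probe set 1459737_s_at). DETA/NO replicate 1 was once more the highest array, and the other 8 lay between 2.35 and 8.17. A second Ttr probe set, 1454608_x_at, read 44.2 on that array and at most 8.2 on the others. Probe set 1455913_x_at was also highest there, at 20.3. The remaining one, 1451580_a_at, was highest on no LIF replicate 3, at 8.74, and read 4.31 on DETA/NO replicate 1.

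Apoa1, the protein of high density lipoprotein, had signals of 11.7, 8.34 and 6.9 in DETA/NO replicates 1, 2 and 3, of 6.36, 0.74 and 2.03 without LIF and of 4.02, 1.45 and 0.3 with LIF (probe set 1438840_x_at). The donor arrays were the 3 highest, yet none of the 36 values of the 4 Apoa1 probe sets reached the 40th percentile of its array. At such signals the order of the arrays carries no test, and all 13 probe sets of Afp, Ttr and Apoa1 were left out by the filter.

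The 4 values of these 13 probe sets that did reach the 40th percentile were all on DETA/NO replicate 1. They were 3 values of Ttr and 1 of Afp. The summed signal of the 13 probe sets was 152 on that array and 31.3 and 25.5 on DETA/NO replicates 2 and 3. It was 19.9 to 45.9 without LIF and 26.2 to 28.1 with LIF. DETA/NO replicate 1 is also one of the 3 arrays with a higher median. Of those arrays, DETA/NO replicate 2 had a sum of 31.3 and LIF replicate 1 a sum of 26.2. The part of array brightness in these sums was not tested.

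**Figure D2:**
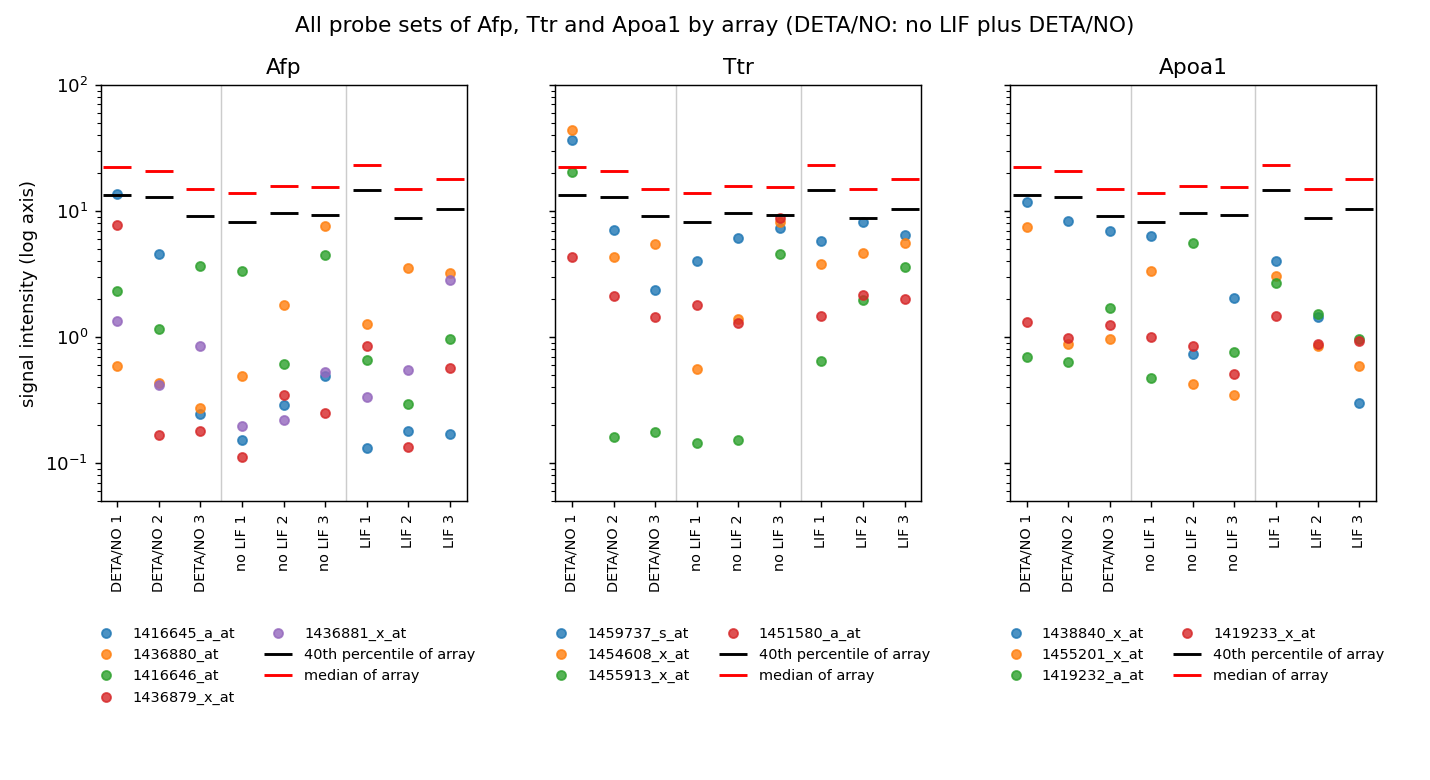
Signal intensity (log axis) of the 13 probe sets of Afp, Ttr and Apoa1 on each array, with short black bars for the 40th percentile and red bars for the median of that array. Points lie below the black bars except for 4 on DETA/NO replicate 1, of which 2 Ttr probe sets exceed the median (36.6 and 44.2).

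Read over both roles, no member was called in any comparison. Of the 12 member probe sets tested, limma called 0 with DETA/NO against LIF, where the share called among all 29811 tested probe sets was 0% too. At an unadjusted p under 0.05 there were 0 members against 1.94% of all, and 0 members had groups without overlap against 5.98%. For no LIF against LIF the counts were 0, 0 and 0 of 12 members by the same rules, against 0%, 1.54% and 7.6% of all. For DETA/NO against no LIF they were 0, 0 and 1 of 12, against 0%, 5.02% and 8.92%. The smallest adjusted p over all tested probe sets was 1, 0.973 and 0.929 in the 3 comparisons, in that order at 3 arrays a group.

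Of the 6 genes tested, 4 were lower and 2 higher with DETA/NO than with LIF, with a median difference of -0.38 on the log2 scale, beside -0.01 over the 13376 genes tested. The same counts held for no LIF against LIF, with a median of -0.47 beside 0.01. For DETA/NO against no LIF, 4 were higher and 2 lower, with a median of 0.07 beside -0.02. Both comparisons against LIF share the LIF arrays.

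The sizes of these differences rest in part on the arrays set out above. Without the 2 arrays that go against their labels, Cubn differed by -1.75 between DETA/NO and LIF, -2.40 between no LIF and LIF and 0.65 between DETA/NO and no LIF, and Lrp2 by 1.62, 1.17 and 0.45 in the same order. Without the pair most alike, Amn differed by -1.12, -0.48 and -0.64, Cubn by -0.87, -0.49 and -0.38 and Lrp2 by 1.53, 0.24 and 1.29. In these fits Amn and Cubn were lower in both comparisons against LIF, and Lrp2 higher in all 3, while no adjusted p was under 0.5. The first fit left out a LIF array where Amn was 66.2 and a no LIF array where it was 232. Its larger difference for no LIF against LIF follows from that choice and is no separate support. Other settings turned Lrp2 for no LIF against LIF, to -0.10 with brightness as a block and to -0.82 without LIF replicate 1.

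**Figure D3:**
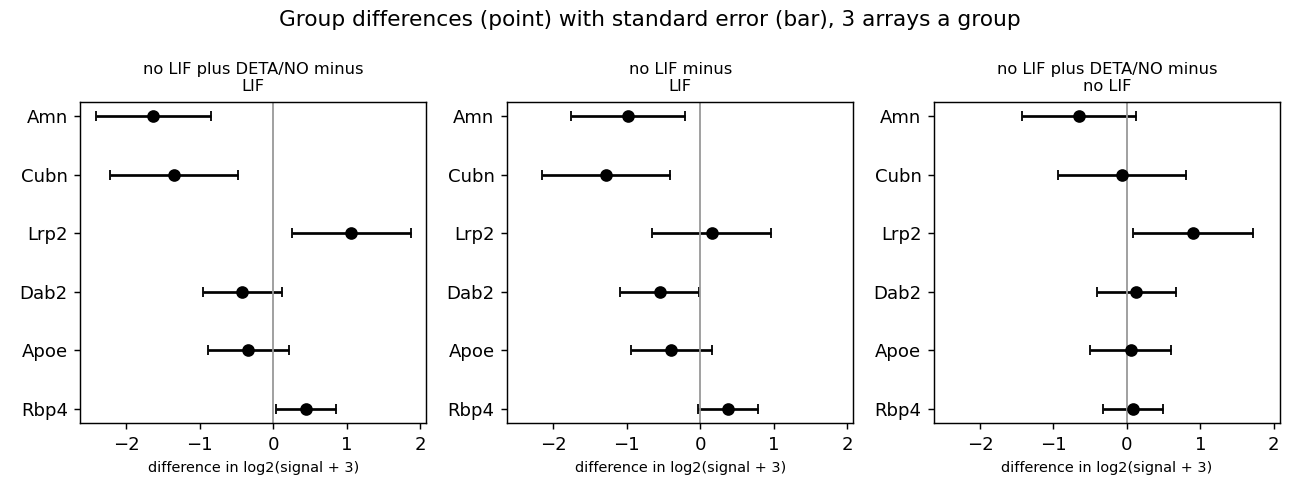
Differences between groups on the log2(signal + 3) scale for the 6 tested genes in the 3 comparisons, with points for the difference and bars for 1 standard error (3 arrays a group). Amn has the largest difference of the 18, -1.63 between DETA/NO and LIF, and Lrp2 lies on the other side of zero at 1.06.

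Of the members, Cubn, Amn and Lrp2 varied most from array to array. The standard deviation of the log2 signal over the 9 arrays was 1.33 for Cubn, 1.23 for Amn and 1.17 for Lrp2, and 97.2%, 96.1% and 95.1% of all tested genes varied less. Dab2, at 0.67, was nearer to the median gene at 0.55. Of the serum proteins, Apoe stood at 0.74 and Rbp4 at 0.40, a spread that only 24.7% of genes fell below. Highest over lowest signal came to 25.1 for Cubn, 15.9 for Amn, 12.7 for Lrp2, 4.82 for Dab2, 4.12 for Apoe and 2.43 for Rbp4.

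The genes were then set against each other over the 9 arrays, in 15 pairs with exact permutation tests. Amn and Cubn, whose products form 1 receptor, ran together, with a Pearson r of 0.84 (exact p = 0.00454, adjusted 0.0453) and a Spearman rho of 0.67 (exact p = 0.0589, adjusted 0.27). Their r was 0.79 without LIF replicates 1 and 3, the arrays farthest from the median of Amn, 0.94 within the 6 arrays of lower median and 0.86 after passage means were taken out. The 3 arrays of higher median are too few for a value. Leaving out single arrays gave 0.72 to 0.90, and the adjusted exact p was then under 0.05 only without DETA/NO replicate 1 or LIF replicate 1. Without the pair most alike r was 0.74 (adjusted exact p = 0.22), and without the arrays that go against their labels 0.85 (adjusted exact p = 0.114). With arrays put on another scale r was 0.80 under quantile normalization and 0.82 under median centring (adjusted exact p = 0.128 and 0.0915). With a pseudocount of 16 it was 0.84 (adjusted exact p = 0.0536). The sign held in all of these, and the call did not. The exact p, here and below, takes the arrays as exchangeable, though some arrays are more alike than others. The share of all gene pairs with such an r was not taken, so the likeness is not shown to be particular to Amn and Cubn.

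Lrp2 did not run with either of them. Amn and Lrp2 gave a Pearson r of -0.31 (exact p = 0.423, adjusted 0.503) and a rho of -0.15 (exact p = 0.708, adjusted 0.885). Cubn and Lrp2 gave r = 0.06 (exact p = 0.879, adjusted 0.879) and rho = -0.02 (exact p = 0.982, adjusted 1). Without the 2 farthest arrays these r were -0.13 and -0.18, and within the 6 arrays of lower median -0.02 and 0.15. With 9 arrays, such values do not show that the genes are unrelated.

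Across the roles, Dab2 and Rbp4 ran against each other, with r = -0.81 (exact p = 0.00604, adjusted 0.0453) and rho = -0.80 (exact p = 0.0138, adjusted 0.207). The r was -0.93 without LIF replicates 1 and 3, -0.90 within the 6 arrays of lower median and -0.75 after passage means were taken out. It was weaker where arrays were put on another scale, -0.50 under quantile normalization and -0.52 under median centring (adjusted exact p = 0.306 and 0.282). Without the pair most alike it was -0.77 (adjusted exact p = 0.22). Cubn and Dab2 gave r = 0.78 (exact p = 0.0162, adjusted 0.0681) and rho = 0.60 (exact p = 0.0968, adjusted 0.27), but r was 0.50 without LIF replicate 3.

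**Figure D4:**
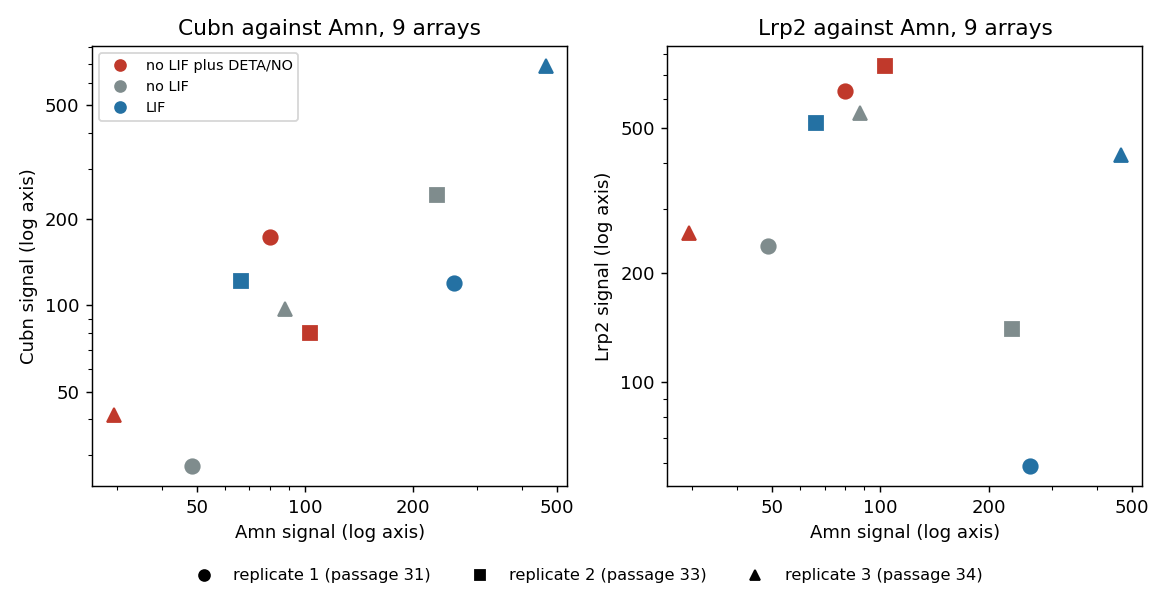
Cubn signal (left) and Lrp2 signal (right) against Amn signal on the 9 arrays, log axes, coloured by group with symbols for the replicate. Cubn follows Amn (r = 0.84 on the log2 scale), while Lrp2 is lowest on no LIF replicate 2 and LIF replicate 1, where Amn is 232 and 260.

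The genes most like the members were sought among 6655 genes with a mean signal of at least 100, by Pearson r over the 9 arrays. For the mean profile of the uptake genes, the closest were Spcs3, a subunit of the signal peptidase, with r of 0.932, Txndc15 with 0.927, Lamb1, a laminin chain of basement membranes, with 0.918, the lysosomal protease gene Ctsl with 0.913 and Tmem9b with 0.909. No such list is given for the serum protein genes, since 3 of those 5 genes were too dim for the order of their arrays to be read. These are the top of a long search, so the size of r is a description with no test.

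Because Amn and Cubn parted from Lrp2, both profiles were also searched on their own, a split chosen after their values were seen. The closest to Amn and Cubn were the secreted protease gene Htra1 with r of 0.986, the coagulation inhibitor gene Tfpi with 0.965, Steap1 with 0.961, Crtap, which acts in collagen modification, with 0.957 and the laminin chain gene Lama1 with 0.956. Lama1 had signals of 368, 141 and 78.2 in DETA/NO replicates 1, 2 and 3, of 85.4, 1108 and 343 without LIF and of 1311, 164 and 2976 with LIF. It was high on the same 3 arrays as Amn, which follows from the search by likeness. The closest to Lrp2 were Eif4g3 with 0.960, the keratin gene Krt18 with 0.940, Wwc1 with 0.939, Maco1 with 0.932 and the carbonic anhydrase gene Car4 with 0.931. Krt18, a keratin of simple epithelia, had signals of 2617, 6570 and 1647 with DETA/NO, of 1536, 208 and 5928 without LIF and of 160, 6086 and 2593 with LIF. Its low arrays were LIF replicate 1 and no LIF replicate 2, as for Lrp2, which follows from the search as well.

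**Figure D5:**
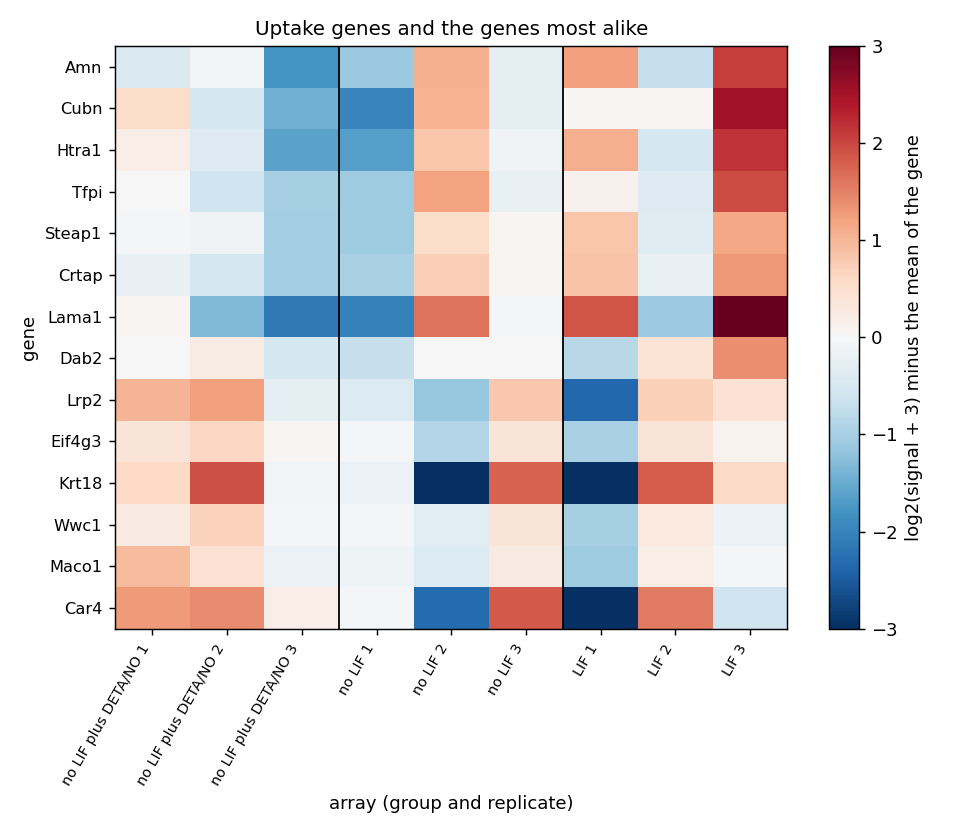
Log2(signal + 3) minus the mean of the gene over 9 arrays (colour, limited to ±3) for the uptake genes and for the 5 genes most like Amn and Cubn and the 5 most like Lrp2, with arrays in columns. The genes around Amn and Cubn are high on LIF replicate 3, where Htra1 is 702. Those around Lrp2 are low on LIF replicate 1, where Krt18 is 160. Both follow from the search by likeness.

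Most other listed genes of the uptake route also had signals above the array median. Of 15 listed partners of megalin and cubilin with a probe set, 13 lay above the median of the array on all 9 arrays. Lrpap1, the chaperone that escorts megalin through the cell, ran from 1161 to 4805 over the arrays. The endosome genes Rab11a and Rab5a ran from 265 to 882 and from 268 to 1134. In the fit, 0 of the 15 were called, 0 had an unadjusted p under 0.05 in any comparison, and 7 were higher and 8 lower with DETA/NO than with LIF (median -0.04 on the log2 scale).

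Other products of the visceral endoderm were mostly dim. Of 14 further genes listed for it, 2 lay above the median on all arrays, namely Rhox5, a homeobox gene, at 135 to 1808, and Mttp, which loads lipid onto apolipoprotein B, at 33.3 to 95.5; neither encodes a secreted protein. Cited1, a transcriptional coregulator, ran from 9.09 to 382. The apolipoprotein genes Apob, Apoa2 and Apoa4, the fibrinogen genes Fga, Fgb and Fgg, the albumin gene Alb and the signal gene Ihh reached the median on no array. Spink1, also a gene of a secreted protein, reached it on 6 arrays, at 2.51 to 36.8, and the apolipoprotein genes Apoc2 and Apom on 1 array each. Of 7 tested, limma called 0 in each comparison, with 0 at an unadjusted p under 0.05.

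Of the transcription factors listed for the visceral endoderm, 5 of 8 lay above the median on all arrays, namely Gata4, Gata6, Sox17, Eomes and Hhex. Foxa2 reached it on 6 arrays, Hnf4a on 2 and Cer1 on 0. Eomes ran from 39.9 to 522, Gata6 from 32.9 to 439 and Hhex from 43.2 to 126. Gata6, which drives endoderm formation, had signals of 50.6, 50.7 and 36.7 in DETA/NO replicates 1, 2 and 3, of 39.2, 108 and 32.9 without LIF and of 129, 64.4 and 439 with LIF, and was highest on LIF replicate 3, as Amn and Cubn were. It differed by -1.7 ± 0.66 (SE) between DETA/NO and LIF (limma, adjusted p = 1). In the list, limma called 0 of 7 tested, while 1, 2 and 0 had an unadjusted p under 0.05 with DETA/NO against LIF, no LIF against LIF and DETA/NO against no LIF, beside 1.94%, 1.54% and 5.02% of all tested probe sets. Of the 2 for no LIF against LIF, 1 was Hnf4a by the dim probe set 1450447_at, which reached the median on 0 arrays. Its brightest probe set, 1427001_s_at, with the 2 arrays given above, did not pass the filter.

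Markers of other cells that such cultures can hold also differed between the arrays. Of 11 listed genes of parietal and primitive endoderm, 8 lay above the median on all arrays, and their summed signal was 2848 to 7176 with DETA/NO, 2957 to 10465 without LIF and 7883 to 21486 with LIF. Among them were the matrix gene Sparc at 942 to 5512, the collagen chaperone gene Serpinh1 at 371 to 3512 and Lamb1 at 852 to 3132. All 10 tested were lower with DETA/NO than with LIF, with a median of -1.31 on the log2 scale, and lower without LIF than with LIF, with a median of -1.06. Over all genes tested, 50.9% and 49.6% were lower in these comparisons. Limma called none of the 10, and 3 and 0 had an unadjusted p under 0.05, where 1.94% and 1.54% of all probe sets did. Without no LIF replicate 1, the median for no LIF against LIF was -0.36. The sum was highest on LIF replicate 3, the array on which Amn, Cubn and Dab2 were highest, and its part in those values was not tested. The list holds Lama1 and Lamb1, which were found above by their likeness to uptake genes.

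Of 7 trophoblast genes 3 lay above the median on all arrays, with sums of 3901 to 13735 with DETA/NO, 846 to 11118 without LIF and 747 to 11210 with LIF. The sums were lowest on LIF replicate 1 and no LIF replicate 2, as Lrp2 was, and most of each sum is Krt8 and Krt18, keratins that other epithelia share, visceral endoderm among them. Krt18 was found above by its likeness to Lrp2, so this likeness of the sum is not a separate observation. Elf5 reached the median on no array. Fibroblast genes summed to 67.5 to 142 with DETA/NO, 71.7 to 144 without LIF and 74.9 to 144 with LIF, with 1 of 7 above the median throughout and Col3a1, Postn, Dcn and Lum above it on no array. Of 6 macrophage genes 1 was above the median throughout, Cd68 at 56.6 to 591, while Ptprc and Aif1 were above it on no array. Definitive endoderm genes, of which 1 of 4 was above the median throughout, summed to 82.4 to 141 with DETA/NO, 46.1 to 147 without LIF and 98.1 to 236 with LIF. Other lists also went in a single direction. All 8 genes of pluripotent cells were lower with DETA/NO than with LIF (median -0.42) and than without LIF (median -0.41). All 6 trophoblast and all 4 definitive endoderm genes tested were higher with DETA/NO than without LIF (medians 0.94 and 0.21). Over all genes tested, 50.9% were lower with DETA/NO than with LIF. Against no LIF, 52.4% were lower and 47.6% higher. Limma called none of these list genes. The part of these cell types in the member signals was not tested.

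Together these values describe the label of visceral endoderm in part. By the brightest probe set of each gene, the uptake genes and the secreted members Apoe and Rbp4 had signal above the median on every array. So had 13 of the 15 partners of the uptake genes and 5 of 8 listed transcription factors. Over all its probe sets, Lrp2 reached the median in 21 of 27 values and Dab2 in 23 of 36. The share of all genes above the median on every array was not taken, so whether these counts are particular to visceral endoderm cannot be told. The secreted products Afp, Apoa1, Apob and Alb had no signal above the median on any array, and Ttr on 1 array alone. Others lay between, with Spink1 above it on 6 arrays and Apoc2 and Apom on 1 each.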

How the data were processed

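RNA of D3-pOct4 cells was measured in 9 samples on 1-colour Affymetrix arrays of the mouse genome. The deposited values are linear signal intensities that the authors made with GeneChip Operating System 1.4.0.036 and global scaling, per the labels' design text; the submitters' processing notes name MAS5. A genome build of that processing is not given in the sources used here. The 2% trimmed mean of every array was 100. Detection calls were not used here.

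Values were turned to log2(signal + 3), which understates changes of dim probe sets. With 64 controls set aside, testing took the 29811 probe sets that were at or over the 40th percentile on 3 or more of 9 arrays. Names came from the platform annotation, where 34945 have 1 symbol, 932 several and 9160 none, and all 25 member probe sets matched a RefSeq gene through their Entrez identifier. One limma 3.58.1 fit in R 4.3.3 over all 9 arrays (lmFit, eBayes with trend, group as the term) gave two-sided p-values, with Benjamini-Hochberg adjustment over the whole tested table and a threshold of 0.05. Pairs of genes were set against each other by exact permutation in scipy 1.17.1. The fit was run on simulated data with independent noise. High recovery of set changes was required only at a spread smaller than that of these arrays, so the run does not show what the fit can detect here.

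The text names all members, each by its probe set of highest mean signal, the 5 genes most correlated with the uptake genes, and the 3 members of highest mean signal of a marker list with none called. The rule asked for 5 such genes for the serum protein genes too, which are not given because 3 of those members were dim. Members, lists and tests were chosen with earlier results of these data known. The groups share replicate numbers, which are passages. Deviations of same-numbered arrays from their group means correlated at -0.597 to 0.65, so the numbers were not taken to pair the arrays. The alternatives were the pseudocount (1 or 16), the filter, quantile normalization, median centring, the replicate block, the arrays in the fit, array brightness as a block, the omission of doubted arrays and of each array in turn. With 3 arrays a group, log2 differences had a median standard error of 0.5, and the number of arrays limits the precision.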

Additional observations from a re-analysis of the deposited data

How the results depend on the processing

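Under all 10 alternatives and with each of the 9 arrays left out, limma called 0 probe sets in each of the 3 comparisons. With the replicate block 471, 493 and 1602 probe sets had an unadjusted p under 0.05 for DETA/NO against LIF, no LIF against LIF and DETA/NO against no LIF, against 578, 459 and 1498 without it, and the block changed no call of a gene's difference. Those counts were 1319, 1135 and 2353 with no filter, 1377, 2444 and 1016 without the 2 arrays that go against their labels, 1185, 788 and 3564 without the pair most alike, and 1653, 294 and 676 with brightness as a block. Leaving out single arrays gave 258 to 1117, 255 to 1753 and 486 to 4290.

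Of 180 differences of the 6 genes under the alternatives, 169 kept their sign and 11 turned, and 15 of 162 turned with an array left out; the lowest adjusted p was 0.492. Median centring shifted every difference by 0.22 for no LIF against LIF and by -0.23 for DETA/NO against no LIF. For DETA/NO against no LIF it turned Dab2 to -0.10, Apoe to -0.18 and Rbp4 to -0.15, quantile normalization turned Dab2 to -0.02 and Rbp4 to -0.20, the omission of the arrays against their labels turned Cubn to 0.65 and Rbp4 to -0.04, and brightness as a block turned Apoe to -0.60. For no LIF against LIF that block turned Lrp2 to -0.10. Without the pair most alike, Apoe was 0.24 with DETA/NO against LIF and 0.17 without LIF against LIF. With single arrays left out, Apoe ran from -0.77 to 0.24 and Dab2 from -0.99 to 0.11 with DETA/NO against LIF. Apoe ran from -0.71 to 0.17 and Lrp2 from -0.82 to 0.72 without LIF against LIF. For DETA/NO against no LIF the ranges were -0.51 to 0.64 for Apoe, -0.86 to 0.65 for Cubn, -0.1 to 0.34 for Dab2 and -0.09 to 0.33 for Rbp4. Causes were not tested.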
